A study of Homo sapiens with 6 samples.

Results

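Added loci are rows of a gene count table that carry no Ensembl gene ID and instead bear a running number of the form Homo_sapiens_newGene. They were chosen by that name alone, and numbered 5228 of the table's 25202 rows, or 20.7%. RNA-seq counts came from 6 libraries of Huh7, a long-established line of human hepatoma cells, with 3 libraries a group. The control libraries were titled sgNC and carried the genotype label WT, and the others were titled sghnRNPA2B1 and carried the genotype label KO. All 6 had the same treatment label, cell culture, and no age, passage or clone was given. The protein that HNRNPA2B1 encodes is an hnRNP, one of the abundant nuclear proteins that coat new transcripts and take part in their splicing. Whether the knockout cells were a clone or a pool is not stated. Below, 3 values in a row stand for replicates 1, 2 and 3 of a group in that order.

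RNA polymerase II transcribes far more of a mammalian genome than its protein-coding genes. Transcripts from outside those genes include long non-coding RNAs, RNAs from enhancers and divergent promoters, run-on past the ends of genes, and RNAs that start in repeats. Many are kept scarce: the nuclear exosome degrades them, cleavage and termination factors end them early, and chromatin-bound silencers hold repeats inactive. Read-based pipelines commonly add such rows by assembling transcripts from the reads themselves. The sources used here do not give how these rows were defined, nor their coordinates, lengths or strands. No sequence is therefore shown, and read counts of different loci cannot be set against each other per length.

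The rows with an Ensembl ID were almost wholly protein-coding. In GENCODE release 29, 19922 of the 19974 were of that type, 41 were polymorphic pseudogenes, and 11 were immunoglobulin or T-cell receptor segments, 9 of them immunoglobulin V genes. None of the 16054 long non-coding RNA genes of that release matched a row by ID. An added locus is therefore one without an Ensembl row here, and need not be unknown to an annotation. Whether the reads of known non-coding genes lie in added loci was not tested. The numbers of the loci ran from 1 to 9760.

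The libraries held 32517757 to 38870244 counts. For HNRNPA2B1 the control counts were 40867, 32755 and 44149, and the knockout counts 8729, 8232 and 8364. The groups lay far apart, with a log2 fold change of −2.40 ± 0.14 (SE; edgeR adjusted p = 2.28e-06). Of 17 hepatocyte markers all were tested, and 16 fell, where 19% of all rows tested did. The 8 fibroblast markers together held 1.72 to 2.84 CPM (counts per 1000000 counts of the library) in the controls and 9.25 to 28.0 CPM in the knockout libraries, with FAP at 0 in all 6, and 3 of the 4 tested rose, where 21.1% of all rows tested did. One of the 3, COL3A1, had control counts of 0, 19 and 0 and knockout counts of 30, 262 and 14, so its groups overlapped. Without knockout replicate 2, or with limma-voom, 2 of the 4 rose, and the median log2 fold change of 2.74 became 1.76 without that library. In bulk RNA, fewer cells of a type and less RNA per cell cannot be told apart. The part of these markers in the results on added loci was not tested. No label states that replicates were separate cultures. The p-values rest on the spread between these libraries alone, and that spread may be technical.

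More of the added loci were detected in the knockout libraries than in the controls, and they took a larger share of the reads. At least 1 count was seen at 3489, 3283 and 3270 loci of the controls, and at 4159, 4023 and 4013 loci of the knockout libraries. Every knockout library lay above every control. As means, 64.0% ± 2.35 of the added loci were detected in the controls and 77.8% ± 1.56 in the knockout (SD, n = 3 each). Library totals overlapped between the groups. With each library thinned to the smallest total, the expected means were 3342 ± 114 and 4061 ± 77.9 loci (SD, n = 3 each). With a minimum of 10 counts they were 2206 ± 101 and 2810 ± 92.5. Ensembl rows went from 14663 ± 86.9 to 15366 ± 190 detected, a gain similar in number, and from 73.4% ± 0.433 to 76.9% ± 0.953 of a larger set. Of that set, 13607 rows had counts in all 6 libraries and 3195 in none, so they could not differ in detection. For added loci these numbers were 2429 and 0. The percentages are thus not matched for abundance. Shares and detection were described without a test. Whether the added rows were defined from the reads of these same libraries is not stated. If they were, a locus read in 1 group alone would be listed because of those reads.

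The share of a library's counts held by added loci was 2.00%, 1.88% and 2.13% for the controls, and 2.68%, 2.60% and 3.71% for the knockout. Both ranges stayed apart, but knockout replicate 3 stood well above the other 2. The means were 2.00% ± 0.127 and 3.00% ± 0.621 (SD, n = 3 each), a difference of 0.992 percentage points. Without knockout replicate 3 it was 0.634 points. Without the 10 loci with the most counts it was 0.608 points, at 1.36% to 1.54% in the controls and 2.01% to 2.13% in the knockout. Leaving out those few loci removed most of the spread within the knockout group.

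**Figure D1:**
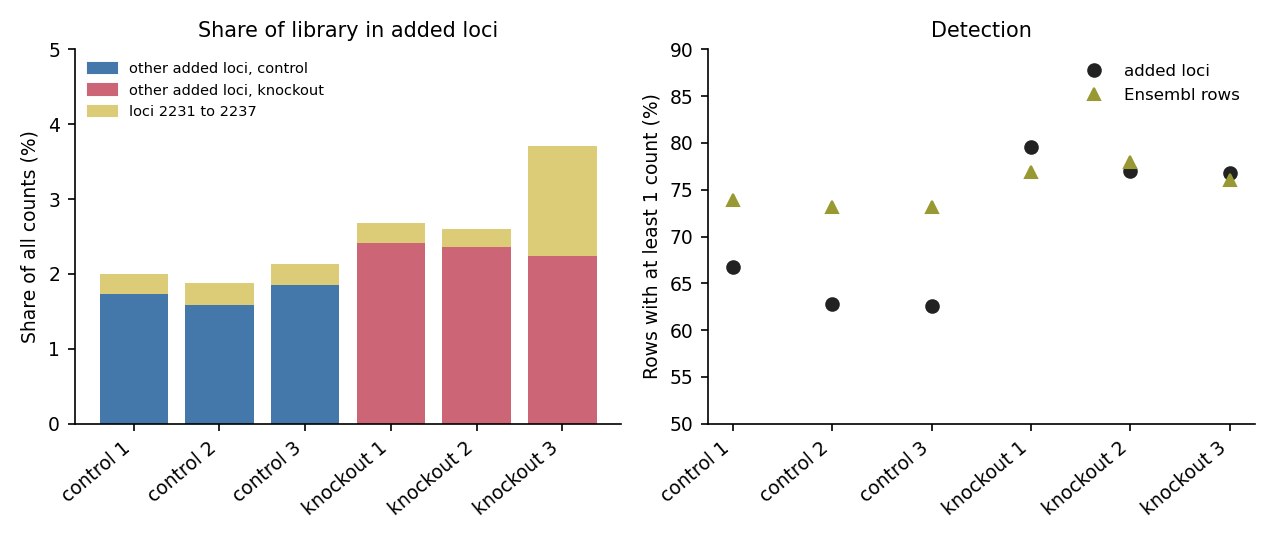
Left, the share of all counts (%) held by added loci in each library, as bars, with a run of 7 consecutively numbered loci (2231 to 2237) stacked in yellow. Right, the percentage of added loci (circles) and of Ensembl rows (triangles) with at least 1 count, on an axis from 50 to 90%. Added loci other than the run held 1.59% to 1.85% of counts in the controls and 2.24% to 2.42% in the knockout libraries, and the run held 1.47% in knockout replicate 3 against 0.235% to 0.289% elsewhere.

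Most added loci were rare, and a few held most of the reads. Over all 6 libraries the median locus had 53 counts, against 1684.5 for the median Ensembl row. Fewer than 10 counts in all were seen at 1094 loci (20.9%), and 1000 or more at 674 (12.9%). Only 52 loci held 50% of all the reads in added loci, and 745 held 90%. Every added locus had at least 1 count, while 3195 Ensembl rows had none. Counts were present in all 6 libraries at 2429 loci (46.5%) and in 1 library alone at 832 (15.9%). Those seen in 1 library alone were 85, 59 and 67 loci in the controls, by library, and 231, 194 and 196 loci in the knockout. Loci of this kind were thus more numerous in each knockout library than in any control. They rested on few reads, with a median of 4 or 5 counts in the library that held them.

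Of the 5 loci with the most counts, 4 stood high in a single library. The first had control levels of 1366, 1565 and 1576 CPM, from here on scaled by TMM, and knockout levels of 1160, 1048 and 7013 CPM. It was high in knockout replicate 3 alone. For the second, the control levels were 1699, 1426 and 2368 CPM and the knockout levels 1615, 1653 and 1494 CPM. These ranges overlapped, and the log2 fold change was −0.21 ± 0.16 (SE; edgeR adjusted p = 0.330). The other 3 were, like the first, high in knockout replicate 3 alone. In order of counts, their edgeR adjusted p-values were 0.172, 0.0997 and 0.132.

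Those 4 loci belong to a run of 7 with consecutive numbers, 2231 to 2237, singled out after their values were seen. Its ends are loci with a share in knockout replicate 3 at least 4-fold the mean of the other 2 knockout libraries. Only numbers within 5 of locus 2236 were searched. An excess of that size at the ends is thus no separate result. In knockout replicate 3, locus 2236 held 250870 counts, where the other 5 libraries held 36770 to 50696. Locus 2237 held 56129 against 4521 to 7432 elsewhere, and locus 2231 held 63578 against 5936 to 9166. Relative to the mean of the other 2 knockout libraries, 6 of the 7 loci were 4.76-fold to 9.93-fold higher in knockout replicate 3. The exception was locus 2234, at 1.06-fold. Its counts were 3306, 2713 and 3019 for the controls, and 5341, 4928 and 5207 for the knockout. It was raised alike in all 3 knockout libraries, by 0.60 ± 0.10 (SE) on the log2 scale (edgeR adjusted p = 0.00157).

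Without knockout replicate 3, the other 6 loci of the run lay below the controls, at 0.628 to 0.835 of the control mean. The run took 39.7% of the reads in added loci of that library, and 9.05% to 15.4% in the rest. Among added loci whose mean log2 CPM reached 0, 6 of 1589 were at least 4-fold above the other knockout libraries in knockout replicate 3. These are the 6 loci of the run already described. Among Ensembl rows, 4 of 12555 were. In knockout replicate 2, 4 added loci were as far above its group and 6 as far below, against 2 below in replicate 3. In replicate comparisons over added loci, the chi-square per degree of freedom was 6.81 between knockout replicates 1 and 2, and 99 or more between either and replicate 3. Control pairs gave 11 to 17.2. All these values include the run, and none is given without it. Over all rows of the table, added loci among them, the knockout pairs with replicate 3 gave 30.4 and 30.9, against 9.72 for the other knockout pair. Control pairs were higher there, at 57.6 to 89.7. What these loci are, and why 1 library differed, was not tested.

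**Figure D2:**
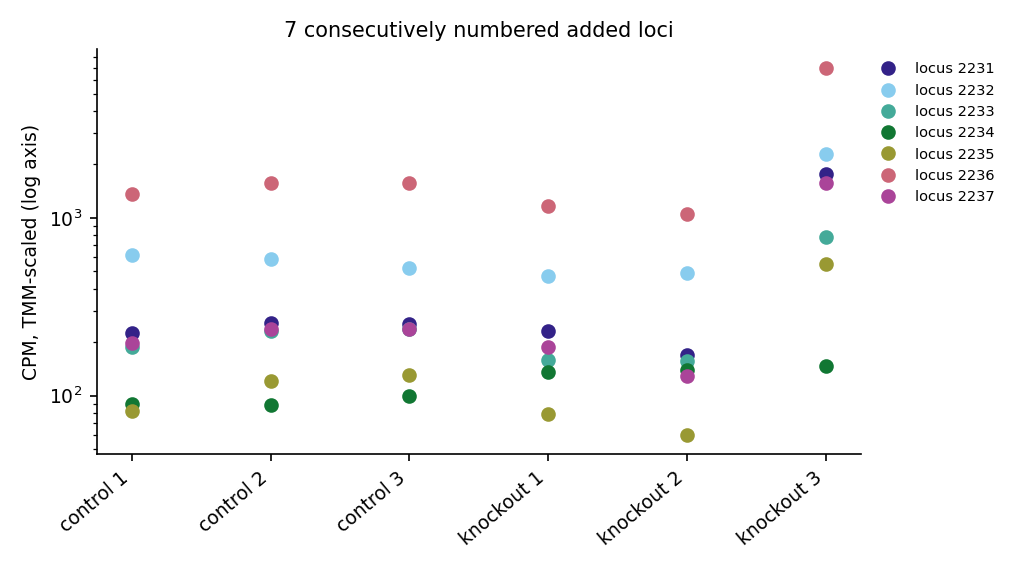
TMM-scaled CPM (log axis) of the 7 consecutively numbered added loci in each library, 1 point per locus and library. Knockout replicate 3 stands above the other 5 libraries at 6 of the 7 loci, and locus 2234 is the exception.

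Away from the most abundant loci, the reads in added loci were more numerous in the knockout libraries in each class of abundance. Loci with under 10 counts in all, 1094 of them, together held 16.5, 13.4 and 15.2 CPM of the controls, and 41.2, 37.5 and 36.8 CPM of the knockout libraries. The knockout mean was 2.56-fold the control mean. For the 2064 loci with 10 to under 100 counts the ratio was 1.81, for the 1396 loci with 100 to under 1000 it was 1.48, and for the 597 loci with 1000 to under 10000 it was 1.25. The groups did not overlap in any of these 4 classes. Ensembl rows in the same 4 classes had ratios of 2.09, 1.67, 1.33 and 1.02. The gradient with abundance was thus common to both kinds of row, and the added loci had the higher ratio in each class. In the lowest class the Ensembl rows varied widely, at 33.1, 54.4 and 27.8 CPM of the knockout libraries. Without knockout replicate 3 the ratios of that class were 2.62 for added loci and 2.38 for Ensembl rows. In the 77 loci with 10000 counts or more the ratio was 1.33, which became 1.00 without knockout replicate 3. Ensembl rows of that class were at 0.848.

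The edgeR quasi-likelihood test over the whole table asked which loci differed. A default filter on low counts kept 2528 added loci, 48.4% of them, and 13803 Ensembl rows. At a Benjamini-Hochberg adjusted p below 0.05, 717 added loci rose and 117 fell, while 1694 passed in neither direction. Rises were 28.4% of the tested added loci, against 21.1% of all rows tested, and falls were 4.63% against 19%. At least 2-fold, 544 loci rose (21.5%, against 10.6% of all rows) and 57 fell (2.25%, against 3.31%). The median log2 fold change of the tested added loci was 0.53, against 0.05 over all rows tested. Added loci supplied 20.8% of all called rises and 3.77% of all called falls, and were 15.5% of rows tested.

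The knockout libraries lay wholly above the controls at 1067 tested added loci (42.2%, against 29.6% of all rows), and wholly below at 194 (7.67%, against 24.8%). Rises made up 86.0% of the calls on added loci. That share was 64.4% with cyclic loess and limma-trend, a scaling that removes trends with abundance, where 417 rose and 231 fell and the median was 0.12. The 2700 loci below the filter had a median of 13 counts over all libraries and were not tested. Together they held 150 to 174 CPM in the controls and 303 to 332 CPM in the knockout libraries.

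Called rises were larger than called falls. The median size of a rise was 1.5 on the log2 scale, with quartiles at 1.01 and 2.28, and that of a fall was 0.95, with quartiles at 0.62 and 1.45. Called Ensembl rows had medians of 0.90 and 0.61. Rises of 4-fold or more numbered 228 among added loci (9.02% of those tested) and 409 among Ensembl rows (2.96%). Those of 8-fold or more numbered 100 (3.96%) and 173 (1.25%). No abundance match was made here. Of the called rises of added loci, 19 had no count in any control, so their fitted sizes rest on no measured control level. Falls of 4-fold or more numbered 10 of the 117 called falls of added loci. No figure for Ensembl rows is given at that size, so this count has no background beside it. Loci that rose were also scarcer, with a median mean log2 CPM of 1.35, against 2.72 for those that fell.

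The next question was whether added loci changed more than Ensembl rows of the same abundance. Reads per row, not per length, set the abundance, in bins of mean log2 CPM over the 6 libraries. In each of 7 bins the median log2 fold change of added loci lay above that of Ensembl rows. Below 0 the medians were 0.77 over 939 loci and 0.58 over 1248 Ensembl rows. From 3 to 4 they were 0.36 over 209 loci and 0.12 over 1518 rows. At 5 and over, where Ensembl rows reach much higher levels within the bin, they were 0.23 over 122 loci and −0.17 over 6294 rows. Weighted by the number of added loci per bin, the difference was 0.17 on the log2 scale. The bin medians of Ensembl rows, weighted in the same way, had a mean of 0.41. The 0.53 of the added loci is a median over all those tested, so the 2 are not the same statistic. Most of the rise of added loci was nevertheless also seen in Ensembl rows with as few reads.

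Each library could be given the same within-bin difference, as the deviation of added loci from their mean over all libraries less that of Ensembl rows. It was −0.09, −0.18 and −0.02 for the controls, and 0.13, 0.04 and 0.05 for the knockout. Every knockout library lay above every control, with means of −0.10 ± 0.08 and 0.08 ± 0.05 (SD, n = 3 each). The difference rests on how rows are matched: with bins set by the control libraries alone it was 0.049 in place of 0.17. It was not tested.

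Calls followed the same order. Weighted to the abundance of the added loci, 23.9% of Ensembl rows rose and 7.92% fell, against 28.4% and 4.63% of added loci. The gap was small among rare rows, at 19.3% and 18.1% rises below a mean log2 CPM of 0. It was wider from 3 to 4, where 40.7% of added loci and 27.5% of Ensembl rows rose. Replicate spread was close to that of Ensembl rows. Below 0, the median SD of log2 CPM over 3 controls was 0.68 for added loci and 0.66 for Ensembl rows, and from 3 to 4 it was 0.22 and 0.24. Both kinds of row varied less between knockout libraries, at 0.14 and 0.13 in that last bin.

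**Figure D3:**
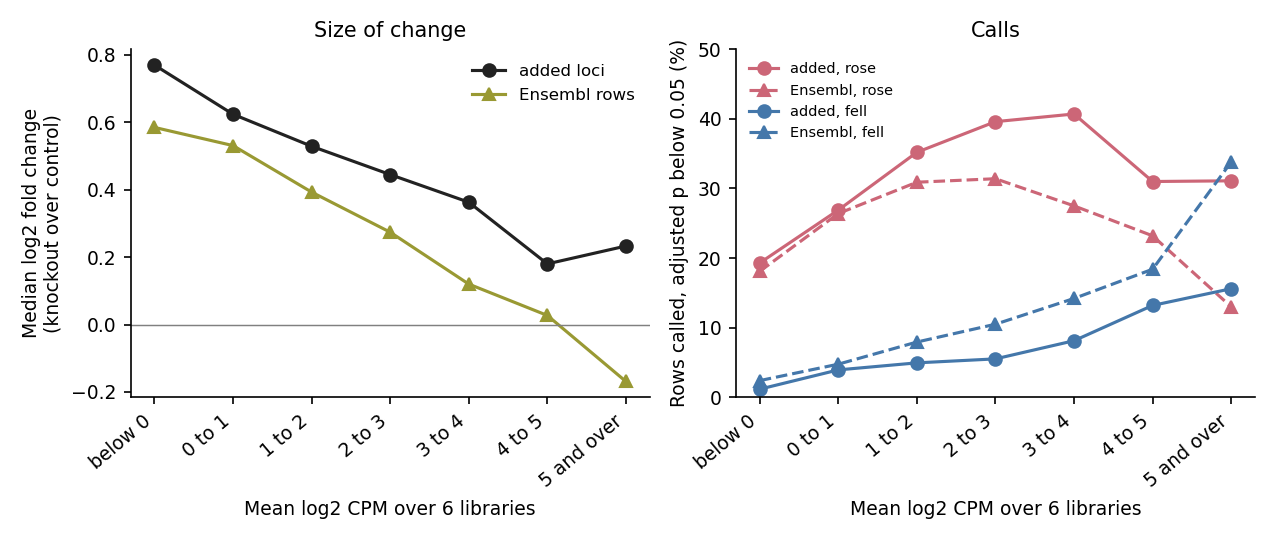
Left, the median log2 fold change (knockout over control) of tested added loci (circles) and Ensembl rows (triangles) in 7 bins of mean log2 CPM. Right, the percentage of rows called at an adjusted p below 0.05, rises in red and falls in blue, with added loci as solid and Ensembl rows as dashed lines. Both medians are lower in the last bin than in the first, at 0.23 against 0.77 and −0.17 against 0.58, and the added loci stand above the Ensembl rows in each bin.

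The table gives no gene name for any added locus, so the loci with the largest changes are given by ID. By a rule on called loci with mean log2 CPM at or above 3 and groups that do not overlap, these are the 2 largest rises and the 2 largest falls. That their groups do not overlap is therefore no separate result. Homo_sapiens_newGene_7377 had control counts of 36, 43 and 27, and knockout counts of 1312, 1080 and 1019. It stood near 1 CPM in all 3 controls and near 30 in all 3 knockout libraries. It rose by 4.82 ± 0.19 (SE) on the log2 scale (edgeR adjusted p = 3.46e-07). Homo_sapiens_newGene_3514 had control counts of 145, 54 and 186, and knockout counts of 3259, 2579 and 2515. Control replicate 2 was the lowest of its controls, at 1.77 CPM against 3.91 and 6.18. It rose by 4.25 ± 0.33 (SE) on the log2 scale (edgeR adjusted p = 1.33e-05).

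Among falls, Homo_sapiens_newGene_1135 had control counts of 611, 418 and 638, and knockout counts of 179, 157 and 135. The knockout libraries were close together, and the log2 fold change was −2.01 ± 0.20 (SE; edgeR adjusted p = 5.25e-05). Homo_sapiens_newGene_155 had control counts of 3468, 3379 and 6437, and knockout counts of 2211, 1782 and 1805. Control replicate 3 stood above the other 2 controls, at 214 CPM against 93.5 and 111. Its log2 fold change was −1.41 ± 0.26 (SE; edgeR adjusted p = 0.00202), and −0.99 without control replicate 3. The largest falls were thus far smaller than the largest rises at this abundance, 4.02-fold against 28.2-fold.

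**Figure D4:**
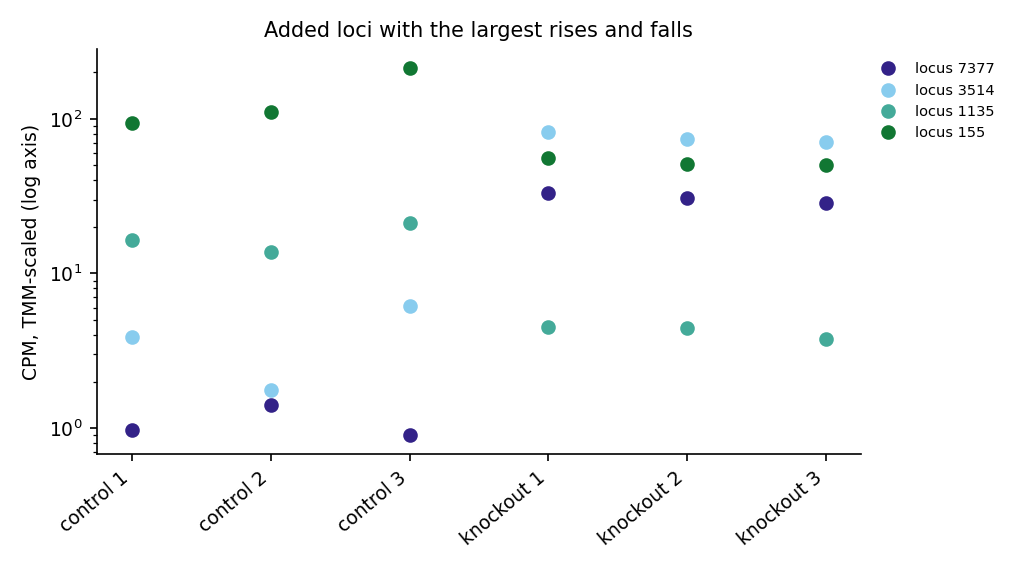
TMM-scaled CPM (log axis) in each library for the added loci with the 2 largest rises (7377 and 3514) and the 2 largest falls (1135 and 155), 1 point per locus and library. Knockout means are 30.8 and 75.3 CPM for the rises, from control means of 1.09 and 3.95, and 4.25 and 52.3 CPM for the falls, from 17.1 and 139.

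Many added loci were silent in 1 group. No count was seen in any control at 1035 loci (19.8%) that had counts in the knockout, and none in any knockout library at 264 loci (5.05%) that had counts in the controls. For Ensembl rows the figures were 1174 (5.88%) and 358 (1.79%). Of the 1035 loci, 329 had at least 10 counts over the knockout libraries, and 139 were seen in all 3 of them. Of the 264, 44 had at least 10 counts over the controls, and 11 were seen in all 3. Ensembl rows gave similar numbers, with 356 and 51 at 10 counts, and 148 and 12 seen in all 3. The percentages are of all rows and are not matched for abundance. No added locus lacked counts in all libraries, so reads in these libraries may have decided which loci are listed. The part of that in these numbers was not tested. Scarce rows were nearly as many of either kind. With 1 to 9 counts in all there were 1094 added loci and 1377 Ensembl rows, and with 10 to 99 there were 2064 and 2114.

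The locus with the most counts among those silent in the controls had 239, all of them in knockout replicate 3. The second had knockout counts of 68, 13 and 32, and was at least 33.3-fold higher than the controls, with 3 counts over the 3 controls as the floor. The first among loci silent in the knockout had control counts of 216, 0 and 108. The leading silent locus in each direction was thus absent from part of the group that held it. Such floors cover counting error only.

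The fold changes of loci with adjacent numbers were weakly to moderately correlated. Across 735 pairs of tested loci whose numbers differ by 1, Pearson's r of their log2 fold changes was 0.307. It was 0.0906 for a gap of 2 and 0.104 for a gap of 3, and between −0.0201 and 0.0298 for gaps of 10, 50, 100 and 500. Among 164 such neighbours at or above a mean log2 CPM of 1 it was 0.390, and 0.243 in 147 pairs at a gap of 5. At or above 3, with 40 pairs or fewer per gap, adjacent numbers did not stand out. The values were 0.313, 0.314 and 0.373 at gaps of 1, 2 and 5. The difference between control replicates 1 and 2 in the same 735 pairs gave −0.0128. These are descriptions across loci that share libraries, with no test.

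Where both neighbours were called, 91 of 100 pairs went the same way, or 91.0%, against 70.2% to 82.2% at the other 7 gaps. Most calls were rises, which gives a high share at any gap. Of risen loci with a tested partner, 42.3% had a risen partner at a gap of 1, against 28.1% to 37.3% at the other 7 gaps. At or above a mean log2 CPM of 1 the excess was smaller. There 51.1% had a risen partner at a gap of 1, against 31.7% to 48.9% at the other gaps. Pairs going the same way were 86.7% there, against 65.4% to 80.6%. In all, 163 of the risen loci stood in 75 runs of 2 or more consecutive numbers, and 10 of those runs had 3 or more members. The longest had 6. The third of these 6 had no count in any control, and knockout counts of 18, 21 and 19. The locus after it had control counts of 721, 297 and 351, and knockout counts of 1395, 1146 and 1283. How the numbers were given is not stated in the sources used here. Loci with neighbouring numbers may therefore not be independent of each other, and counts of loci need not be counts of separate transcripts.

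**Figure D5:**
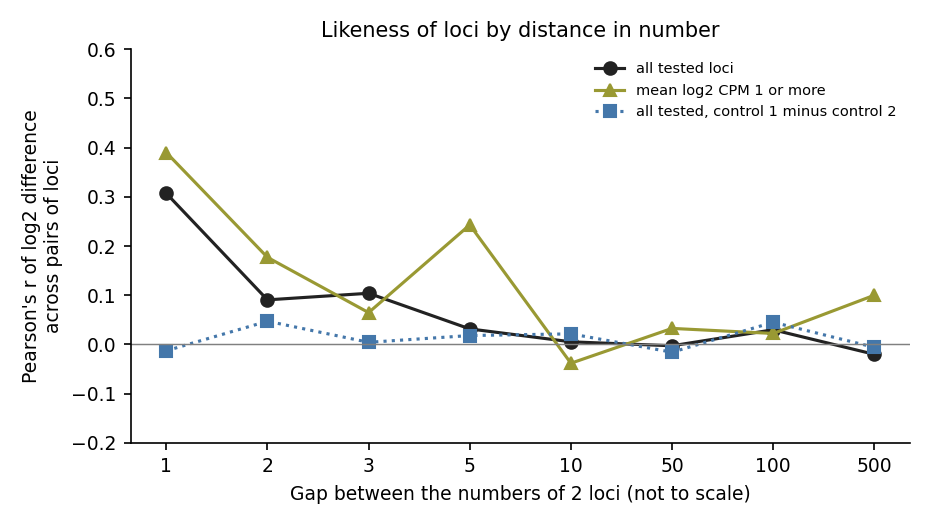
Pearson's r, across pairs of added loci, of the log2 fold change of 1 locus with that of the other, by the gap between their numbers, for all tested loci (circles) and those at or above a mean log2 CPM of 1 (triangles). Squares show the same for the difference between control replicates 1 and 2. At a gap of 1 the values are 0.307, 0.390 and −0.0128.

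Genes of the decay, termination and silencing machinery named above were measured by Ensembl rows. Whether the added loci are transcripts that this machinery limits was not tested. Of 24 genes of the nuclear exosome and its adaptors, 1 rose and 10 fell, where 21.1% and 19% of all rows tested did. Their median log2 fold change was −0.26. SRRT, which links the cap-binding complex to RNA decay, fell from 238 ± 26.6 to 119 ± 3.48 CPM (SD, n = 3 each; edgeR adjusted p = 0.000124). The exosome subunit EXOSC2 fell from 61.4 ± 5.63 to 32.5 ± 1.91 CPM and the poly(A) polymerase TENT4B, which tags RNA for decay, from 50.4 ± 3.25 to 28.2 ± 2.08 CPM. The rise was that of EXOSC8, another exosome subunit, from 34.8 ± 2.86 to 43.7 ± 2.97 CPM (SD, n = 3 each; edgeR adjusted p = 0.0424). This call was lost in 9 of 17 other settings, among them the removal of any 1 knockout library, with adjusted p-values of 0.00685 to 0.185. EXOSC8 and DNMT3B below were named after their values were seen. Without any 1 knockout library, 7 of these 24 genes fell. With library size alone 2 rose and 7 fell, at a median of −0.08.

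Of 37 genes for transcript cleavage and termination, 10 fell and 0 rose in the edgeR test, at a median of −0.22. Of all rows tested, 19% fell and 21.1% rose. Together the 37 genes held 3177 to 3326 CPM of library totals in the controls and 3093 to 3288 in the knockout, so the groups overlapped. The sums of the exosome and silencing lists did not overlap. At an unadjusted p below 0.05, 14 were lower and 1 was higher. The DESeq2 test and limma-voom also called 0 rises, while cyclic loess with limma-trend called 1 and upper-quartile scaling called 3. The Integrator subunit INTS12 fell from 19.9 ± 1.87 to 7.55 ± 0.907 CPM (SD, n = 3 each; edgeR adjusted p = 0.000105). CSTF3 of the cleavage stimulation factor fell 1.72-fold and CPSF7 of cleavage factor I fell 1.46-fold. Without any 1 knockout library, 5 of these 37 genes fell, and with library size alone 5 rose and 4 fell. Of 22 silencing genes, 1 rose and 10 fell, at a median of −0.20. The KAP1 corepressor TRIM28, which silences endogenous retroviruses, fell from 764 ± 103 to 478 ± 7.55 CPM. The maintenance DNA methyltransferase DNMT1 and the histone H3 methyltransferase EHMT2 fell 1.46-fold and 1.57-fold. The rise was that of the de novo DNA methyltransferase DNMT3B, at 1.38-fold, and was lost without knockout replicate 2 and at an adjusted p below 0.01. With library size alone 1 of the 22 rose and 5 fell, at a median of −0.02, and with cyclic loess 2 rose and 6 fell.

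Over all rows tested, 21.1% rose and 19% fell, at a median of 0.05, and 33.8% of Ensembl rows at or above a mean log2 CPM of 5 fell. With cyclic loess the medians were −0.25, −0.10 and −0.01 for the 3 lists, the last no different from the −0.004 of all rows. Any part of these genes in the levels of added loci was not tested.

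Olfactory receptor genes, which liver cells are not expected to transcribe, also had more reads in the knockout libraries. Their 408 rows held 19.3 to 25 CPM of library totals in the controls and 69.8 to 77.1 in the knockout. Most of these reads fell in the 5 rows that passed the filter, of which 2 rose, where 21.1% of all rows tested did. The other 403 rows held 2.60 to 4.98 CPM in the controls and 6.48 to 7.41 in the knockout. Genes of the replication histones, whose transcripts mostly lack a poly(A) tail, held 140 to 179 and 154 to 165 CPM, and the groups overlapped. Whether such reads have a part in the change of added loci was not tested.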

How the data were processed

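The values analysed were raw read counts, 1 column a library, as deposited by the authors. A single build, hg19, appears in the submitters' processing notes. Per the labels' protocols, RNA was prepared with an RNeasy kit and the SMARTER mRNA-Seq kit made the libraries. No aligner, counter, annotation or strand setting was given in the sources used here, so loci that overlap a gene could share its reads. Members and lists were chosen with earlier results of these data known. In R 4.3.3, the whole table was filtered (filterByExpr), scaled by TMM and tested by the quasi-likelihood F-test of edgeR 4.0.16 on genotype, without covariates. Adjustment was by Benjamini-Hochberg over all tested rows, Ensembl and added. The code was tested on simulated data. CPM values are TMM-scaled, log2 CPM has a prior count of 2, and SEs derive from the F statistic. Symbols were matched to 19883 Ensembl IDs. CPM of gene families and marker lists are of library totals, without TMM. None of the 48 listed long non-coding RNA symbols matched a row. The 8 leukocyte markers had 3 tested and 2 that fell. Named loci follow the rule in the text, and named genes are HNRNPA2B1 and up to 3 called members of each machinery list with the smallest p. Replicates within a group differed by more than sampling noise, so all 6 libraries were counted. Alternatives used DESeq2 1.42.0 and limma 3.58.1. Figures were drawn with matplotlib 3.10.9.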

Additional observations from a re-analysis of the deposited data

How the results depend on the processing

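The 4 named loci kept their direction and their call in every one of 17 other settings each. Called rises, falls, rises of 2-fold or more and falls of 2-fold or more (717, 117, 544 and 57) became 417, 231, 276 and 152 with cyclic loess and limma-trend, and 395, 54, 334 and 33 at an adjusted p below 0.01. With library size alone, falls numbered 74, and 36 of 2-fold or more. Leaving out 1 library gave 480 to 747 rises, 80 to 129 falls, 395 to 560 rises of 2-fold or more and 42 to 64 such falls. The cause of these moves was not tested. The difference from Ensembl rows of the same abundance (0.17) was 0.26 with no filter on low counts, 0.049 with bins of the control libraries alone, and 0.13 to 0.23 without 1 library. It was positive in all 20 alternatives, of which 2 kinds (rows at log2 CPM of at least 1, and a split top bin) were chosen after seeing the data. The share difference (0.992 points) was 0.608 without the 10 loci with the most counts, 0.614 without the run of 7 (also chosen after seeing the data), and 0.634 to 1.19 without 1 library. The excess of 717.7 detected loci was 604 at 10 counts, and 670.7 to 788.5 without 1 library. Same-numbered libraries did not deviate together (correlations of 0.0424, −0.0708 and −0.0727), so the numbers do not pair them. With the replicate number as a block, 630 loci rose and 103 fell. Few reads limit the 2700 untested loci.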
